A study of Mus musculus with 15 samples.

Results

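Transcriptional regulators of the exocrine pancreas, 6 of the 19938 genes that had a probe set of their own, were followed through cell sorts from embryonic and young mouse pancreas: Ptf1a, Rbpjl, Bhlha15, Nr5a2, Gata4 and Gata6. They were chosen by name, each was read by 1 probe set, and all 6 were among the 16883 genes that passed a filter on low values. RNA was amplified and hybridised to 15 Affymetrix arrays, 3 for each of 5 groups. Sox9-EGFP or Ngn3-EGFP reporter males had been mated to wild-type CD1 females, so the cells of each group, the GFP- cells included, came from animals of a reporter line on a CD1 background. The groups were GFP+ cells of Sox9-EGFP pancreas at e10.5 and e15.5 (embryonic days) and at p23 (a postnatal day), GFP+ cells of Ngn3-EGFP pancreas at e15.5, and GFP- cells of Sox9-EGFP pancreas at p23. They are called Sox9-GFP+, Ngn3-GFP+ and GFP- cells here. Cells with a high GFP signal were taken, and the labels name no further gate. The GFP- cells are thus known here only as p23 pancreas cells without GFP signal, and whether they were gated further is not known. Several animals went into each sort. A p-value here therefore measures the spread between pools of animals, not between single animals.

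Ptf1a is a bHLH factor that is needed for the pancreas to form and later for acinar cells, which make the digestive enzymes. It binds DNA in the trimeric PTF1 complex with an E-protein and with Rbpj, whose place is taken by the acinar paralogue Rbpjl as acinar cells mature. Bhlha15 (Mist1) organises the secretory apparatus of acinar cells, Nr5a2 is a nuclear receptor that works beside PTF1 on enzyme genes, and the zinc finger factors Gata4 and Gata6 act together in the early pancreas, Gata6 also in acinar maturation. Sox9 marks the early progenitors and later the ducts, and Neurog3 (Ngn3) the precursors of the islet cells.

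Levels are log2(intensity + 16), a change is the difference of 2 group means on that scale with its limma standard error, and the added 16 makes changes of dim genes smaller than they were. A gene is called higher or lower at a Benjamini-Hochberg adjusted p of 0.05 over the 16883 genes. The filter required an intensity above 97.8, the 30th percentile of the table, on at least 3 arrays, and that intensity is drawn as a dotted line in the plots. With 3 arrays in a group, the number of arrays limits the precision of each change.

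The sorts differed in the cells they carried. Sox9 averaged 11.89 ± 0.24 in Sox9-GFP+ cells at p23 and 9.52 ± 0.74 in GFP- cells (SD, n = 3 each), and the duct keratin Krt19 averaged 11.91 ± 0.11 in Sox9-GFP+ and 9.03 ± 0.24 in GFP- cells. Neurog3 stood at 11.83 ± 0.35 in Ngn3-GFP+ cells and at 11.87 ± 0.23 in Sox9-GFP+ cells of e15.5, with overlapping arrays, whereas the summed intensity of 8 endocrine markers was 49718 to 57013 against 31717 to 37175. All 8 leukocyte markers were called lower in Sox9-GFP+ than in GFP- cells at p23, with summed intensities of 1554 to 4089 against 46784 to 63286. The pan-leukocyte gene Ptprc was nevertheless uneven among the Sox9-GFP+ p23 arrays, at 8.12, 10.64 and 10.09 on replicates 1, 2 and 3. The embryonic globin Hbb-y stood at 10.48 and 11.20 on replicates 1 and 2 of Sox9-GFP+ e10.5 and at 9.98 on replicate 1 of Sox9-GFP+ e15.5, the only arrays on which it exceeded 9. Counts are therefore also given without those 3 arrays, which leaves 1 of the 3 Sox9-GFP+ arrays of e10.5 and 2 of the 3 of e15.5, and without the 2 high-Ptprc arrays of Sox9-GFP+ p23, which leaves 1. In sorted populations fewer cells of a type and less RNA per cell cannot be told apart.

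**Figure D1:**
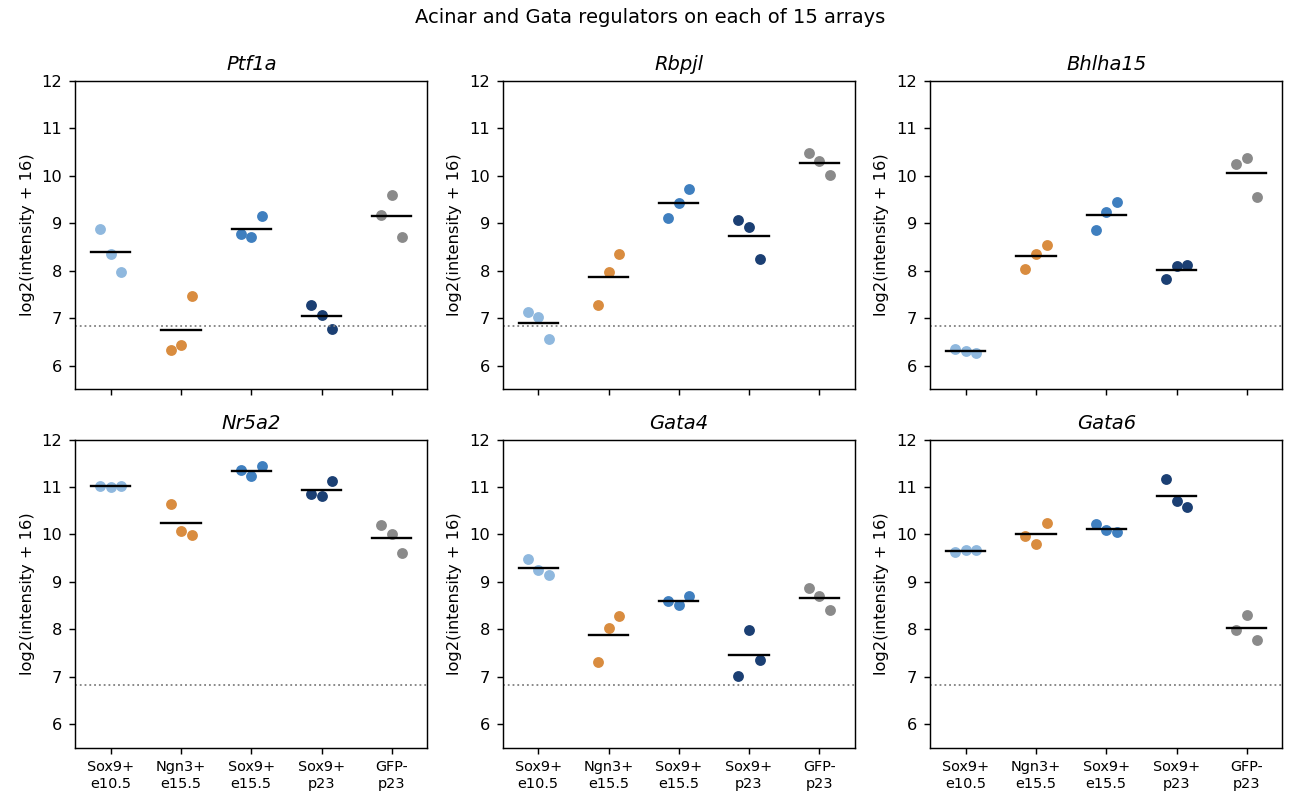
Level of each regulator, log2(intensity + 16), on each of the 15 arrays, with 1 point per array, a bar at each group mean and a dotted line at the filter intensity of 97.8. Rbpjl and Bhlha15 are lowest at e10.5 and highest in GFP- cells, Ptf1a lies at or near the dotted line in Ngn3-GFP+ and Sox9-GFP+ p23 cells, and Gata6 is highest in Sox9-GFP+ p23 cells and lowest in GFP- cells.

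Ptf1a was present in the embryonic Sox9-GFP+ cells and low in the same sort at p23. Its level was 8.88, 8.35 and 7.96 on the e10.5 arrays, 8.78, 8.71 and 9.15 on the e15.5 arrays, and 7.27, 7.06 and 6.77 on the p23 arrays of Sox9-GFP+ cells. The embryonic groups overlapped, and all p23 arrays lay below all embryonic ones. The change was 0.48 ± 0.31 at e15.5 against e10.5 (adjusted p = 0.243), and at p23 Ptf1a fell by 1.85 ± 0.31 against e15.5 (adjusted p = 0.000283). In Ngn3-GFP+ cells the arrays gave 6.32, 6.44 and 7.47, all below the e15.5 Sox9-GFP+ arrays, for a change of -2.14 ± 0.31 (adjusted p = 0.000548). The Sox9-GFP+ p23 arrays also lay below the GFP- arrays of the same age, which read 9.17, 9.59 and 8.70, with a change of -2.12 ± 0.31 (adjusted p = 6.94e-05). Intensities of 63.8 to 162 in Ngn3-GFP+ cells and of 93.1 to 138 in Sox9-GFP+ p23 cells straddled the filter value of 97.8, so the low side of both contrasts rests on dim signals. At p23 against e10.5 Ptf1a was called lower (-1.36 ± 0.31, adjusted p = 0.00247), a call that was lost without the 3 arrays with embryonic globin (-0.93, adjusted p = 0.171) and without the 2 high-Ptprc arrays of Sox9-GFP+ p23 (-1.13, adjusted p = 0.0828).

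Rbpjl, which unlike Rbpj does not bind Notch, was near the filter value at e10.5 and clearly present from e15.5 on. The Sox9-GFP+ arrays read 7.13, 7.03 and 6.56 at e10.5, 9.11, 9.43 and 9.72 at e15.5, and 9.06, 8.93 and 8.24 at p23. No 2 of these stages overlapped. Rbpjl rose by 2.51 ± 0.27 at e15.5 against e10.5 (adjusted p = 2.72e-05) and stayed above e10.5 at p23 (1.84 ± 0.27, adjusted p = 8.90e-05). Its change at p23 against e15.5 was -0.68 ± 0.27 (adjusted p = 0.0474), and this call was lost in 14 of 28 alternative fits: without replicate 3 of Sox9-GFP+ p23, the lowest of that group, the change was -0.43 (adjusted p = 0.201), and without the 2 arrays with high Ptprc -0.36 (adjusted p = 0.429). Ngn3-GFP+ cells gave 7.27, 7.97 and 8.34, below every Sox9-GFP+ array of e15.5, and the change was -1.56 ± 0.27 (adjusted p = 0.00161). The Sox9-GFP+ p23 arrays lay below the GFP- p23 arrays, at 10.48, 10.32 and 10.03, with a change of -1.53 ± 0.27 (adjusted p = 0.000455). For Rbpjl each step in the order of the groups was called, with GFP- cells first, followed by Sox9-GFP+ e15.5, Sox9-GFP+ p23, Ngn3-GFP+ and Sox9-GFP+ e10.5 cells, although the arrays of Sox9-GFP+ p23 and Ngn3-GFP+ cells overlapped. Of the 28 alternative fits, 3 lost the first of these steps, 14 the second, 4 the third and 6 the fourth.

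Bhlha15 followed Rbpjl closely across the stages. It read 6.34, 6.31 and 6.26 at e10.5, 8.85, 9.24 and 9.45 at e15.5, and 7.83, 8.10 and 8.13 at p23 in Sox9-GFP+ cells. The 3 stages were separate, with e15.5 highest. Bhlha15 rose by 2.88 ± 0.21 at e15.5 against e10.5 (adjusted p = 6.77e-07), where the e10.5 intensities of 60.4 to 65.2 were all below the filter value, and fell by 1.16 ± 0.21 at p23 against e15.5 (adjusted p = 0.000459). At p23 it was still 1.72 ± 0.21 above e10.5 (adjusted p = 1.11e-05). Ngn3-GFP+ cells gave 8.03, 8.35 and 8.53, against which the Sox9-GFP+ e15.5 arrays were all higher, and the change was -0.87 ± 0.21 (adjusted p = 0.00682). The 5 measured acinar markers had summed intensities of 12764 to 15226 in Ngn3-GFP+ cells. In Sox9-GFP+ cells they had 17846 to 25223 at e15.5 and 908 to 1561 at e10.5. How much of the Rbpjl and Bhlha15 signal in the Ngn3-GFP+ sort came from acinar cells was not tested. In Sox9-GFP+ cells of p23 Bhlha15 stood below all GFP- arrays, at 10.25, 10.39 and 9.56, with a change of -2.05 ± 0.21 (adjusted p = 2.09e-06). Bhlha15 is also known as a gene of plasma cells, and 5 of the 6 plasma cell markers tested were lower in Sox9-GFP+ than in GFP- cells and 1 was higher (median -2.50). The 7 measured had summed intensities of 1201 to 1465 against 6698 to 11288, and their part in the result was not tested. Bhlha15 did not differ beyond its error between Sox9-GFP+ p23 and Ngn3-GFP+ cells (-0.29 ± 0.21, adjusted p = 0.322, 95% interval -0.73 to 0.16).

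Across the 15 arrays Rbpjl and Bhlha15 had the highest correlation of any pair of the 6 genes (r = 0.92), which is given as a description because the arrays share 5 groups. Because they move together, the 250 bases before their RefSeq start sites (mouse GRCm38.p6, plus strand of the genome in both cases) are shown in lower case with motif matches in capitals. The motifs searched on both strands were the E-box CANNTG, bound by bHLH dimers, the core TGGGAA, bound by Rbpj and Rbpjl, GATAA, bound by GATA factors, and the extended site AAGGTCA of Nr5a2.
Rbpjl: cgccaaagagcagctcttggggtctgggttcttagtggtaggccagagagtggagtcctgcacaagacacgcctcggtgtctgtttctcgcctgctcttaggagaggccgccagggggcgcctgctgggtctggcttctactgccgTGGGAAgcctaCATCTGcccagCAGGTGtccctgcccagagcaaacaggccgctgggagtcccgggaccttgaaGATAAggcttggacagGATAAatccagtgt
Bhlha15: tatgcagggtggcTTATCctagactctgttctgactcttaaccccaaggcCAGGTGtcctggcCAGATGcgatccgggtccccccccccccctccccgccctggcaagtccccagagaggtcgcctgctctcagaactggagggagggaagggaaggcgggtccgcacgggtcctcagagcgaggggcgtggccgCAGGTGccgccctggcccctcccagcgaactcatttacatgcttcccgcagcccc
The Rbpjl window, chr2:164402944-164403193, holds TGGGAA at -104 to -99 from the start site, E-boxes at -93 to -88 and -82 to -77, and GATAA at -30 to -26 and -14 to -10. An E-box a short distance from a TGGGAA core is the layout that PTF1 is known to bind. The share of windows with that layout was not counted. A different count, of windows with an E-box, a TGGGAA and a GATAA at any spacing, gave 3.46% of the 32851 RefSeq windows of this length. The Bhlha15 window, chr5:144190036-144190285, holds E-boxes at -200 to -195, -187 to -182 and -55 to -50 and GATAA on the minus strand at -237 to -233. Of all windows, 66.2% hold an E-box, 21.6% TGGGAA, 22.6% GATAA and 4.1% AAGGTCA, so a single match to 3 of the 4 motifs is common. The Ptf1a window holds 1 TGGGAA, and the 2 Nr5a2 windows hold 2 and 3 E-boxes and 3 and 0 matches to GATAA. No window of these 4 genes held AAGGTCA, which says only that these letters are not in it.

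Nr5a2 was present in each sort. The Sox9-GFP+ arrays read 11.02, 10.99 and 11.02 at e10.5, 11.35, 11.23 and 11.43 at e15.5, and 10.84, 10.80 and 11.13 at p23. None of the 3 stage comparisons was called: the change was 0.33 ± 0.18 at e15.5 against e10.5 (adjusted p = 0.168), -0.41 ± 0.18 at p23 against e15.5 (adjusted p = 0.0579) and -0.08 ± 0.18 at p23 against e10.5 (adjusted p = 0.745, 95% interval -0.46 to 0.29). The p23 change against e15.5 was called lower in 7 of 28 alternative fits, among them those with array weights (-0.48, adjusted p = 0.000182) and with the compared groups alone (adjusted p = 0.0163). Both sorts it was set against were lower. Ngn3-GFP+ cells gave 10.65, 10.07 and 9.997, below every Sox9-GFP+ array of e15.5, with a change of -1.10 ± 0.18 (adjusted p = 0.000934). In Sox9-GFP+ cells at p23 Nr5a2 was above all GFP- arrays, at 10.19, 10.004 and 9.60, with a change of 1.00 ± 0.18 (adjusted p = 0.000425). Nr5a2 was thus called in the direction opposite to Ptf1a, Rbpjl and Bhlha15 in the p23 sorts, in the same comparison and on the same arrays. Probe sets differ in their response, so the levels are compared between groups and not between genes.

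Gata4 was highest at e10.5 among the Sox9-GFP+ stages and declined. It read 9.47, 9.25 and 9.14 at e10.5, 8.60, 8.50 and 8.69 at e15.5, and 7.01, 7.98 and 7.35 at p23. The 3 stages did not overlap. The first step was not called (-0.69 ± 0.25 at e15.5 against e10.5, adjusted p = 0.0548), and at p23 Gata4 fell by 1.15 ± 0.25 against e15.5 (adjusted p = 0.00188) and by 1.84 ± 0.25 against e10.5 (adjusted p = 3.85e-05). The 5 measured liver markers had summed intensities of 14261 to 18255 at e10.5 and 7400 to 8782 at e15.5. Of these, 0 were higher and 3 lower at e15.5 against e10.5, where 28.2% of all genes were called. At p23 against e15.5, 1 was higher and 1 lower. Of 8 stomach and intestine markers, 1 was higher and 5 were lower at e15.5 against e10.5. The part of either list in the fall of Gata4 was not tested. Ngn3-GFP+ cells gave 7.30, 8.03 and 8.29, all below the Sox9-GFP+ arrays of e15.5, with a change of -0.73 ± 0.25 (adjusted p = 0.0329). That call was lost in 8 of the 28 alternative fits, among them the fit without replicate 1 of the Ngn3-GFP+ cells (-0.44, adjusted p = 0.140). At p23 the Sox9-GFP+ arrays lay below the GFP- arrays, at 8.88, 8.70 and 8.40, with a change of -1.21 ± 0.25 (adjusted p = 0.00149).

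Gata6 moved the other way. Its level was 9.62, 9.67 and 9.67 at e10.5, 10.22, 10.08 and 10.05 at e15.5, and 11.16, 10.70 and 10.58 at p23 in Sox9-GFP+ cells. Each stage lay above the one before it on all arrays. The step at e15.5 against e10.5 was 0.47 ± 0.17 and just missed the threshold (adjusted p = 0.0508), whereas Gata6 rose by 0.70 ± 0.17 at p23 against e15.5 (adjusted p = 0.00339) and by 1.16 ± 0.17 against e10.5 (adjusted p = 6.13e-05). Ngn3-GFP+ cells, at 9.97, 9.80 and 10.24, overlapped with Sox9-GFP+ cells of e15.5, and the change was -0.11 ± 0.17 (adjusted p = 0.607, 95% interval -0.47 to 0.25), with the sign turned under quantile normalization and median centring. At p23 the Sox9-GFP+ arrays stood far above the GFP- arrays, at 7.98, 8.30 and 7.78. The change of 2.79 ± 0.17, a 6.93-fold difference on this scale, was the largest of the 6 genes in that comparison (adjusted p = 8.79e-09). Gata4 and Gata6 were therefore called in opposite directions at p23 against e15.5, at p23 against e10.5 and between the p23 sorts.

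**Figure D2:**
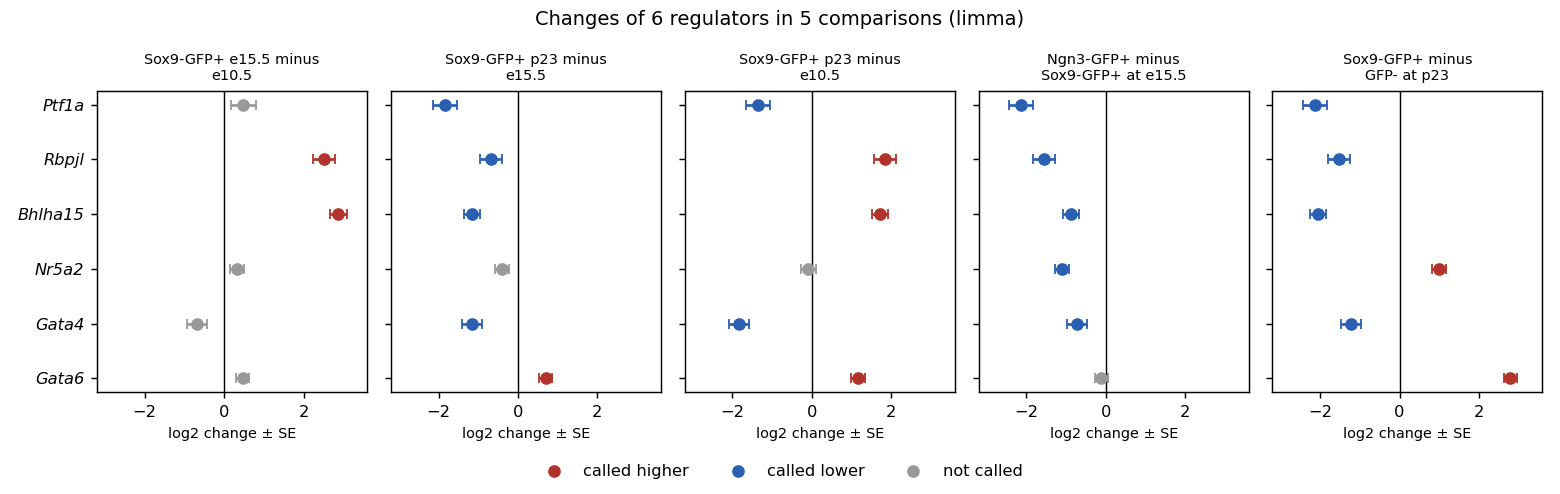
Change of each regulator in the 5 comparisons, as the difference of group means of log2(intensity + 16) with bars of 1 standard error from limma, in red where called higher, in blue where called lower and in grey where not called. Rbpjl and Bhlha15 are the 2 called at e15.5 against e10.5, and Nr5a2 and Gata6 the 2 called higher in Sox9-GFP+ than in GFP- cells at p23.

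Counted over the 6 genes, 2 were called higher and 0 lower at e15.5 against e10.5, where 28.2% of all genes tested were called, 12.2% of all in the higher direction. At p23 against e15.5, 1 was higher and 4 were lower, with 57.5% of all genes called, 30.7% higher and 26.8% lower. At p23 against e10.5, 3 were higher and 2 lower, with 41.0% of all genes called, 17.7% higher and 23.3% lower. In Ngn3-GFP+ against Sox9-GFP+ cells of e15.5, 0 were higher and 5 lower, with 41.7% of all genes called, 18.4% of all in the lower direction. In Sox9-GFP+ against GFP- cells of p23, 2 were higher and 4 lower, with 36.0% of all genes called, 21.5% higher and 14.5% lower. The arrays of the 2 groups did not overlap for 5, 6, 5, 5 and 6 of the 6 genes in these 5 comparisons, against 57.3, 72.7, 50.9, 56.2 and 47.3% of all genes. At p23 against e15.5 the majority of all genes changed too. Cell type markers moved in that comparison: all 8 endocrine markers were lower at p23 (median -4.35), with summed intensities of 2436 to 4854 against 31717 to 37175 at e15.5, while 7 of 8 leukocyte and 7 of 7 endothelial markers were higher. Their part in the results was not tested. The counts that follow come from other fits, to which the shares of all genes given above do not apply. Without the 3 arrays with embryonic globin the counts called were 2, 5, 4, 4 and 6, and without the 2 high-Ptprc arrays of Sox9-GFP+ p23 they were 4, 4, 4, 5 and 6.

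The 2 stage steps were also set against each other. The step to p23 minus the step to e15.5, both of which use the e15.5 arrays, was -2.33 ± 0.53 for Ptf1a (adjusted p = 0.00428), -3.19 ± 0.48 for Rbpjl (adjusted p = 0.000308) and -4.04 ± 0.36 for Bhlha15 (adjusted p = 3.03e-06). These 3 of the 6 genes were called in that difference, a share close to the 47.8% of all genes. For Nr5a2 it was -0.74 ± 0.31 (adjusted p = 0.0586), for Gata4 -0.47 ± 0.44 (adjusted p = 0.388) and for Gata6 0.23 ± 0.29 (adjusted p = 0.522), and none of these was called.

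The 2 sorts at e15.5 and the 2 at p23 gave different pictures. When Sox9-GFP+ cells were on top at both ages, the contrast at p23 minus the contrast at e15.5 was called for 5 of the 6 genes, against 45.3% of all genes. It was -4.26 ± 0.43 for Ptf1a, -3.09 ± 0.39 for Rbpjl, -2.92 ± 0.29 for Bhlha15, -1.94 ± 0.36 for Gata4 and 2.68 ± 0.24 for Gata6. Nr5a2, higher in Sox9-GFP+ cells at both ages, gave -0.11 ± 0.25 (adjusted p = 0.744, 95% interval -0.64 to 0.43). The other sort of each age is a different kind of cell, so this difference compares 2 contrasts and not 1 contrast at 2 ages.

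**Figure D3:**
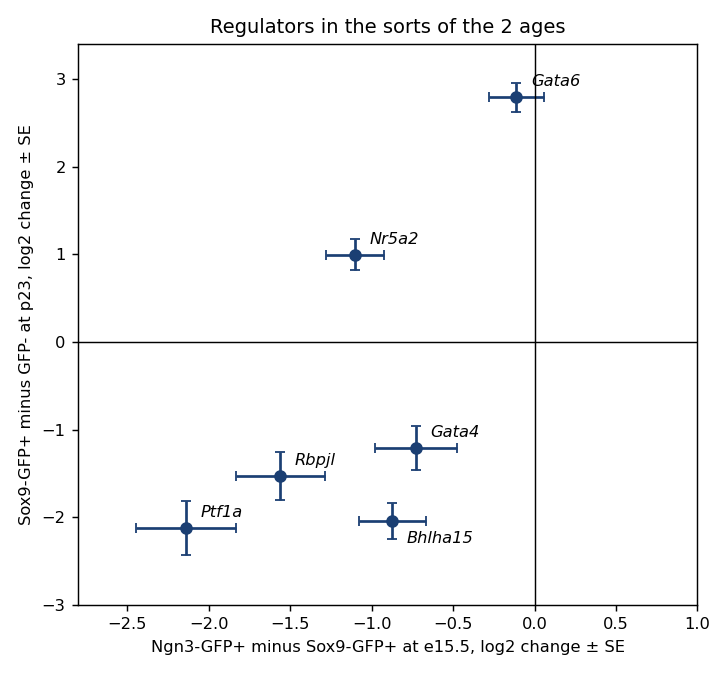
Change of each regulator between the e15.5 sorts, Ngn3-GFP+ minus Sox9-GFP+ (horizontal axis), and between the p23 sorts, Sox9-GFP+ minus GFP- (vertical axis), both as differences of mean log2(intensity + 16) with bars of 1 standard error. Ptf1a, Rbpjl, Bhlha15 and Gata4 lie below 0 on both axes, Nr5a2 below 0 at e15.5 and above 0 at p23, and Gata6 at -0.11 and 2.79.

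The order of the 5 groups was not the same from gene to gene. GFP- p23 cells had the highest mean of Ptf1a, Rbpjl and Bhlha15, Sox9-GFP+ e15.5 cells that of Nr5a2, Sox9-GFP+ e10.5 cells that of Gata4, and Sox9-GFP+ p23 cells that of Gata6. For Ptf1a the 3 upper groups, GFP- p23, Sox9-GFP+ e15.5 and Sox9-GFP+ e10.5, were neighbours without a call, as were the 2 lower groups, Sox9-GFP+ p23 and Ngn3-GFP+. Neighbours without a call were also the 3 Sox9-GFP+ stages and the pair of Ngn3-GFP+ and GFP- cells for Nr5a2. For Gata4 they were e10.5 with GFP- p23 (0.63 ± 0.25, adjusted p = 0.0517), GFP- p23 with Sox9-GFP+ e15.5, and Ngn3-GFP+ with Sox9-GFP+ p23. For Gata6 they were the 3 groups of the embryo. Over the arrays Ptf1a correlated with Gata4 at r = 0.73 and with Gata6 at -0.58, Gata4 with Gata6 at -0.49, and Nr5a2 with Gata6 at 0.63.

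The binding partners of Ptf1a and the Id proteins, which sequester E-proteins away from bHLH factors, formed a list of 8 genes, all measured. At e15.5 against e10.5 none of the 8 was called (0 higher, 0 lower, median -0.24, against -0.05 over all genes, limma), and 1 of them, Tcf12, had an unadjusted p below 0.05 (0.0456). Among all genes 28.2% were called there. Quantile normalization called 3 of the 8 lower, Tcf4 (-0.37), Tcf12 (-0.40) and Id2 (-0.51), and median centring called Id2 lower (-0.47). Rbpj itself was called in none of the 3 stage comparisons of Sox9-GFP+ cells (limma; lowest unadjusted p 0.207), with a mean of 10.57 ± 0.07 at e10.5, 10.52 ± 0.07 at e15.5 and 10.42 ± 0.12 at p23 (SD, n = 3 each). While Rbpjl rose by 2.51 at e15.5, the change of Rbpj was -0.05 ± 0.12 (adjusted p = 0.767). In Ngn3-GFP+ against Sox9-GFP+ cells Rbpj fell by 0.45 ± 0.12 (adjusted p = 0.00974), and it was 0.58 ± 0.12 higher in Sox9-GFP+ than in GFP- cells at p23 (adjusted p = 0.00112), the opposite direction to Rbpjl.

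At p23 against e15.5, 57.5% of all genes were called, 26.8% of all in the lower direction. There 5 of the 8 fell and 0 rose (median -0.93, against 0.05 over all genes). They were the E-protein genes Tcf3 (-1.29 ± 0.18, adjusted p = 7.08e-05) and Tcf4 (-0.58 ± 0.11, adjusted p = 0.000949) and the inhibitors Id1 (-2.01 ± 0.28, adjusted p = 5.76e-05), Id3 (-2.41 ± 0.38, adjusted p = 0.000175) and Id4 (-2.18 ± 0.23, adjusted p = 4.32e-06). The endocrine markers given above, 8 of 8 lower, moved with them, and their part was not tested. In Ngn3-GFP+ against Sox9-GFP+ cells 4 fell, namely Id1 (-2.23 ± 0.28), Id2 (-1.08 ± 0.18), Id3 (-2.19 ± 0.38) and Rbpj, whereas Tcf3, Tcf4, Tcf12 and Id4 were not called. Among all genes 18.4% were called lower in that comparison. Between the p23 sorts Rbpj was called higher and Tcf4 (-1.04 ± 0.11) and Id3 (-2.01 ± 0.38) were called lower in Sox9-GFP+ cells. There 21.5% of all genes were called higher and 14.5% lower. Beside the last of these contrasts, the leukocyte markers and 5 of 7 endothelial markers were lower in Sox9-GFP+ cells too. The 7 endothelial markers had summed intensities of 1007 to 1326 against 3602 to 4223, and their part in the result was not tested.

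**Figure D4:**
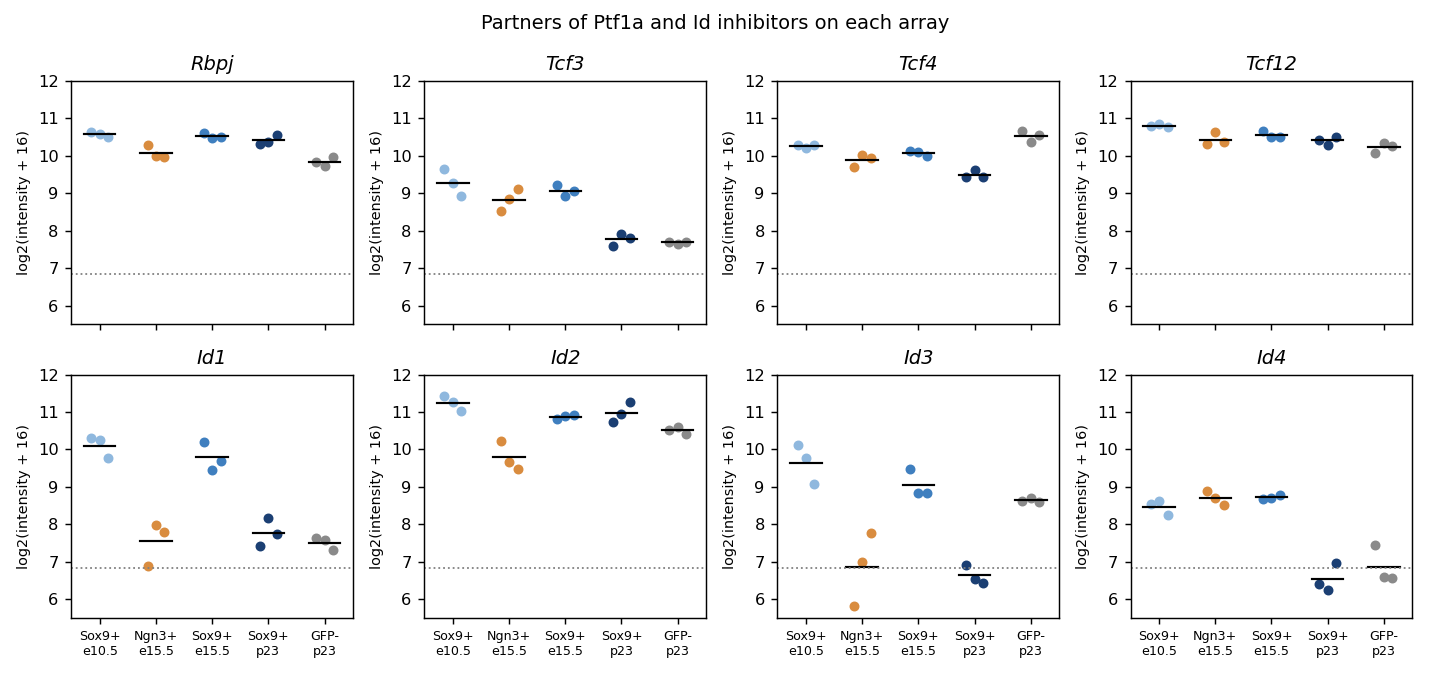
Levels, log2(intensity + 16), of Rbpj, of the E-protein genes Tcf3, Tcf4 and Tcf12 and of Id1 to Id4 on each array, with a bar at each group mean and a dotted line at the filter intensity. Id1 and Id3 are lower in Ngn3-GFP+ than in Sox9-GFP+ cells of e15.5 and lower at p23 than at e15.5 in Sox9-GFP+ cells, while Rbpj, Tcf12 and Id2 stay above 9 on all arrays.

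The other Gata genes and their Fog cofactors were 6 genes, Gata1, Gata2, Gata3, Gata5, Zfpm1 and Zfpm2. On the Sox9-GFP+ arrays 0 to 2 of the 6 lay below the filter value at e10.5 and 3 to 4 at e15.5. Gata1, Gata3 and Gata5 averaged 6.88, 6.36 and 6.70 at e15.5 in that sort, near or below that level. Their changes against Sox9-GFP+ e15.5 cells thus rest on dim signals. At e15.5 against e10.5 Gata5 fell by 0.83 ± 0.11 (adjusted p = 0.000116), and Gata1, Gata2 and Gata3 were called lower as well but lost that call under quantile normalization. In all, 0 of the 6 were higher and 4 lower there, 3 were higher and 1 lower at p23 against e15.5, 0 and 2 at p23 against e10.5, 2 and 0 in Ngn3-GFP+ against Sox9-GFP+ cells, and 0 and 2 between the p23 sorts. The count in Ngn3-GFP+ against Sox9-GFP+ cells was 0 under quantile normalization and 4, all higher, under median centring, and Gata2 and Gata3 lost their p23 calls against e15.5 under quantile normalization. Shares of all genes called in the 5 comparisons, in the order of the counts above, were 28.2, 57.5, 41.0, 41.7 and 36.0%. The cofactor gene Zfpm1 (Fog1) fell by 1.05 ± 0.18 at p23 against e15.5 (adjusted p = 0.000335). Gata3, which T cells use, fell by 2.18 ± 0.17 in Sox9-GFP+ against GFP- cells (adjusted p = 1.15e-07), beside the leukocyte markers given above, whose part was not tested. Of the receptors related to Nr5a2, Nr0b2 (Shp), a corepressor of Nr5a2 in liver, was 0.88 ± 0.24 higher at e15.5 than at e10.5 (adjusted p = 0.0181) and fell by 0.76 ± 0.24 in Ngn3-GFP+ against Sox9-GFP+ cells (adjusted p = 0.0240). The first Nr0b2 call was lost without replicate 3 of Sox9-GFP+ e10.5 and without replicate 3 of Sox9-GFP+ e15.5. Between the e15.5 sorts 0 to 2 of these receptor genes were called with each array left out, so that call was not always kept. Nr0b2 averaged 6.81 at e10.5 and 6.94 in Ngn3-GFP+ cells, near the level of the filter value. At p23 against e10.5 Nr0b2 was 0.89 ± 0.24 higher (adjusted p = 0.00870). Nr5a1 changed by at most 0.51 in the 5 comparisons. It was called lower at e15.5 against e10.5 (-0.37 ± 0.13, adjusted p = 0.0452) and higher at p23 against e15.5 (0.51 ± 0.13, adjusted p = 0.00421). It was also called higher in Ngn3-GFP+ than in Sox9-GFP+ cells (0.45 ± 0.13, adjusted p = 0.0147). Quantile normalization kept only the p23 call. Nr5a1 averaged 6.77 in Sox9-GFP+ e15.5 cells, near the level of the filter value. Nr0b1 was measured but did not pass the filter.

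The genes that acinar cells are known for were set beside their regulators. Trypsinogen and amylase genes have near-identical copies, so their probe sets may read each other's RNA. Of 31 digestive enzyme and granule cargo genes, 24 had a probe set of their own, and of 20 secretory machinery genes 19 did. At e15.5 against e10.5, 18 of the 24 enzyme genes were higher and 0 lower (median 2.47), as were 15 and 0 of the 19 machinery genes (median 0.88), while the median of all genes was -0.05. Higher calls made up 12.2% of all genes there. Ctrb1, a chymotrypsinogen, rose by 6.90 ± 0.24, and the cholecystokinin receptor gene Cckar by 4.34 ± 0.28. The mean of the 24 enzyme genes was uneven among the Sox9-GFP+ e15.5 arrays, at 8.19, 9.28 and 9.83 on replicates 1, 2 and 3. On the e10.5 arrays that mean was 6.51, 6.49 and 6.50. Rbpjl and Bhlha15 had the same order over the e15.5 arrays, with replicate 1 lowest and replicate 3 highest. At p23 against e15.5, 22 of the 24 enzyme genes were higher and 0 lower (median 4.15), in the same comparison in which Ptf1a, Rbpjl and Bhlha15 were called lower. The zymogen granule membrane gene Gp2 rose by 7.10 ± 0.19 in it. The machinery genes were divided, with 6 higher and 4 lower (median 0.21). Among all genes 30.7% were called higher and 26.8% lower in that comparison. Against e10.5, all 24 enzyme genes (median 6.75) and 12 machinery genes were higher at p23, with 2 machinery genes lower. There 17.7% of all genes were called higher and 23.3% lower.

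In Ngn3-GFP+ against Sox9-GFP+ cells 6 of the 24 enzyme genes were lower and 0 higher (median -0.57), a count that ranged from 2 to 11 over the alternative fits, and 5 of the 19 machinery genes were lower and 1 higher. Lower calls made up 18.4% of all genes there. Cpa1, a carboxypeptidase gene of the tip cells and of acinar cells, fell by 1.72 ± 0.26, whereas Ctrb1 stood at 13.33 ± 0.04 in Ngn3-GFP+ cells and at 13.47 ± 0.28 in Sox9-GFP+ cells (SD, n = 3 each). In Sox9-GFP+ against GFP- cells of p23, 4 enzyme genes were lower and 0 higher (median -0.36), and that count ranged from 0 to 12 over the alternative fits. Among all genes 21.5% were called higher and 14.5% lower in that comparison. The mean of the 24 enzyme genes was 12.96, 13.09 and 12.86 on the Sox9-GFP+ arrays, all below the 13.51, 13.52 and 13.40 of the GFP- arrays. The median change of -0.36 over the enzyme genes stood beside changes of -2.12 for Ptf1a, -1.53 for Rbpjl and -2.05 for Bhlha15. Of the machinery genes 12 of 19 were lower and 3 higher there (median -0.76), among them the Bhlha15 target Rab26 (-1.84 ± 0.23) and Tmed6 (-1.71 ± 0.23). Summed intensities of the 5 measured acinar markers were 51771 to 59766 in Sox9-GFP+ p23 cells against 63707 to 66704 in GFP- cells, and 0 of the 5 were called in that comparison (limma), so Sox9-GFP+ cells of p23 carried strong acinar enzyme signal beside their high Krt19. How much of the regulators' signal came from acinar cells in that sort was not tested.

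**Figure D5:**
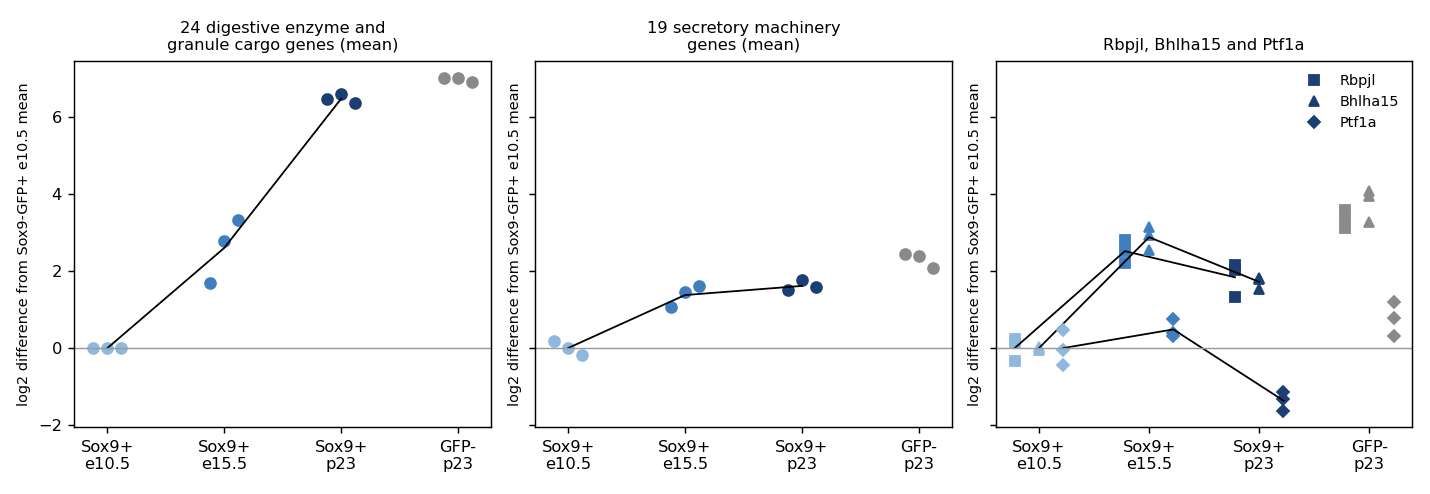
Mean level of 24 enzyme and granule cargo genes, mean level of 19 secretory machinery genes, and Rbpjl, Bhlha15 and Ptf1a, each on single arrays as the difference in log2(intensity + 16) from the Sox9-GFP+ e10.5 mean, with lines through the Sox9-GFP+ means. The enzyme mean rises at each stage, while the 3 regulators are lower at p23 than at e15.5 and the GFP- arrays lie above the Sox9-GFP+ p23 arrays in each panel.

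Among all genes that passed the filter, the 5 with the highest Pearson correlation to each regulator over the 15 arrays were named, as a description, since 5 groups of 3 arrays set most of each value. For Ptf1a they were Xpot (r = 0.97), which exports tRNA from the nucleus, Mrpl42, Slc1a3, P2rx1 and Mars1. For Rbpjl they were Cckar (r = 0.97), Il22ra1, a subunit of the interleukin 22 receptor that acinar cells carry, Tmem97, Reep5 and Sntb1. Il22ra1 averaged 6.07 at e10.5, 9.06 at e15.5 and 8.83 at p23 in the Sox9-GFP+ sort, 7.25 in Ngn3-GFP+ cells and 10.98 in GFP- cells, the same order of groups as Rbpjl. For Bhlha15 they were Lgals12 (r = 0.98), the amino acid transporter gene Slc38a3, Reep5, which shapes the endoplasmic reticulum, H2bc4 and Pck2, so Reep5 stood on the lists of both Rbpjl and Bhlha15.

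For Nr5a2 the closest genes were Slc25a13 (r = 0.97), a mitochondrial aspartate and glutamate carrier, Gmnn, Extl2, B4gat1 and Ckap2. For Gata4 they were Gsto1 (r = 0.94), Igfbp4, Tmem47, Cd320 and Rcl1, with lower correlations than for the other members. For Gata6 they were Sh3d21 (r = 0.98), Nedd4l, the receptor gene Fgfr2, Sema6a and Cdh1, which encodes the epithelial adhesion protein E-cadherin. Fgfr2 averaged 11.30 ± 0.08 in Sox9-GFP+ cells of p23 and 7.30 ± 0.36 in GFP- cells, and Cdh1 12.31 ± 0.01 in Sox9-GFP+ and 10.51 ± 0.15 in GFP- cells (SD, n = 3 each). The GFP- cells, lowest in Gata6, Fgfr2 and Cdh1, had the most leukocyte signal, whose part was not tested.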

How the data were processed

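The deposited values are linear intensity, 1 per probe set and array. The submitters' processing notes name PLIER and Affymetrix Expression Console 1.1 as the authors' tools. The sources used here do not say whether arrays were scaled to each other, and values were taken as deposited. Per the labels' protocols, RNA of sorted cells was amplified with the NuGEN Ovation system. Array medians lay between 165.5 and 211.7, and no 2 arrays were identical.

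Of 35557 probe sets, 21789 named 1 gene, 1621 several and 12147 none. The first kind held 19938 genes. For the 999 genes with more than 1 probe set, the brightest on average over all 15 arrays was used. Genes above intensity 97.8 on at least 3 arrays were kept. All arrays entered 1 limma 3.58.1 fit (R 4.3.3) of log2(intensity + 16) with a mean per group, and p-values were adjusted by the Benjamini-Hochberg method over the 16883 genes. With 3 arrays against 3, an exact rank test cannot give a p under 0.1. The fit was tested on simulated data.

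The 6 genes and the gene lists were chosen with earlier results of these data known. Named genes are the members, all genes of the lists of PTF1 partners and Id genes, of Gata and Fog genes and of Nr5a and Nr0b receptors, up to 3 called genes per other list and comparison, and 5 genes per member by correlation. Lists of cell type markers were summed and counted as well. Promoter windows came from RefSeq tables, and figures were drawn with Python 3.11.15 and matplotlib 3.10.9. Alternatives were quantile normalization, median centring, an offset of 1 or 64, 2 other filters, averaged probe sets, a fit of the compared groups alone, array weights, trended and robust variances, a replicate block, each array left out, and, chosen after seeing the data, fits without arrays with high Hbb-y or Ptprc.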

Additional observations from a re-analysis of the deposited data

Results flagged for a closer look

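Of the 6 genes, 5 differed between the contrasts of the 2 ages by a test of the difference itself, the contrast of Sox9-GFP+ against GFP- cells at p23 minus that of Sox9-GFP+ against Ngn3-GFP+ cells at e15.5. For Ptf1a the difference was -4.26 (adjusted p = 5.12e-06). For Rbpjl it was -3.09 (adjusted p = 3.51e-05), and for Bhlha15 it was -2.92 (adjusted p = 4.16e-06). For Gata4 it was -1.94 (adjusted p = 0.000798). Gata6 gave 2.68 (adjusted p = 1.32e-06), the only positive one of the 5. Among all genes 45.3% were called in this difference. The sort set against Sox9-GFP+ cells was a different kind of cell at each age, so 2 contrasts are compared. The median over all genes was 0.18, and all 5 were called in each of the 28 alternative fits.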

How the results depend on the processing

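Each of 42 changes (6 genes, 7 contrasts) was recomputed under 28 alternatives. Of the 1176 values, 1119 kept their side of the threshold, 24 lost the call, 33 gained it, and 5 had the other sign. None of those 5 was called before or after: Gata6 in Ngn3-GFP+ against Sox9-GFP+ cells with quantile normalization (0.09) and median centring (0.0097), Gata4 in the difference of the stage steps with array weights (0.013), and Nr5a2 in the difference of the sorts without Ngn3-GFP+ replicate 3 or GFP- replicate 1 (0.016 and 0.025). The count of 2 members called at e15.5 against e10.5 became 4 with offset 64, 5 with the compared groups alone, 4 with array weights, 4 without the Sox9-GFP+ p23 arrays with high Ptprc, and 2 to 4 with each array left out (4 without Ngn3-GFP+ replicate 3 or Sox9-GFP+ p23 replicate 1); Gata4 and Gata6 were gained, and Nr5a2 too with the compared groups alone. Rbpjl at p23 against e15.5 was not called with quantile normalization (-0.43, adjusted p = 0.297) or median centring (-0.56, adjusted p = 0.102), nor was Gata4 in Ngn3-GFP+ against Sox9-GFP+ cells (-0.61, adjusted p = 0.122, and -0.61, adjusted p = 0.0618). The cause was not tested.

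Genes called at e15.5 against e10.5 numbered 4754, but 2835 with quantile normalization, 7149 with the compared groups alone, 2673 without the arrays with embryonic globin and 1840 to 5952 with each array left out. At p23 against e10.5 they numbered 6916 and 3559 without those arrays. In Ngn3-GFP+ against Sox9-GFP+ cells there were 7034, 4127 with quantile normalization and 3757 to 7196 with each array left out, and for the difference of the stage steps 8066, 4571 and 4849 to 8803. Median centring moved each gene's change by -0.10 at e15.5 against e10.5, 0.12 at p23 against e15.5, 0.12 between the e15.5 sorts and -0.15 between the p23 sorts. The genes called higher and lower were then 1674 and 4287 (2060 and 2694 as deposited), 6433 and 3603 (5184 and 4530), 5342 and 2304 (3933 and 3101), and 2677 and 3540 (3622 and 2455), and for the difference of the stage steps 5731 and 2481 (4520 and 3546).

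Same-numbered replicates did not deviate together: 3 of 30 pairs had r over 0.1 (-0.49 to 0.20). With the replicate block, 2, 4, 5, 5 and 6 members were called in the 5 comparisons, and Rbpjl at p23 against e15.5 was lost (adjusted p = 0.0640). The shares of all genes called in the main fit do not apply to the replicate block counts. Signal near background limits Ptf1a in Ngn3-GFP+ and Sox9-GFP+ p23 cells and Rbpjl and Bhlha15 at e10.5. It also limits Gata4 in Sox9-GFP+ p23 cells, Gata1, Gata3 and Gata5 in Sox9-GFP+ e15.5 cells and Nr0b2 at e10.5.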

Other observations

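The 18 measured genes of a list of progenitor and tip regulators were also counted. In the comparisons below, taken in order, 28.2, 57.5, 41.0, 41.7 and 36.0% of all genes were called. The counts that follow are of the 18. At e15.5 against e10.5, 1 was higher and 4 lower (median -0.12), with Etv5 (-1.59 ± 0.25) and Etv4 (-1.58 ± 0.17), targets of FGF signalling, falling furthest. At p23 against e15.5, 2 were higher and 9 lower (median -0.37). Among all genes 30.7% were called higher and 26.8% lower there. Nkx6-1, which marks the trunk and beta cells, fell by 3.29 ± 0.29, and the Notch target Hes1 rose by 2.41 ± 0.23. All 8 endocrine markers were lower in that comparison too (median -4.35), and their part was not tested. At p23 against e10.5, 1 was higher and 11 lower. In Ngn3-GFP+ against Sox9-GFP+ cells 4 were higher and 8 lower, with Myc (-1.74 ± 0.29), Myb (-1.70 ± 0.20) and Hes1 (-1.42 ± 0.23) the 3 largest. In Sox9-GFP+ against GFP- cells of p23, 10 were higher and 2 lower (median 0.72), led by Prox1 (4.01 ± 0.18) and Onecut1 (3.15 ± 0.19), the same direction as Gata6 and Nr5a2. Among all genes 21.5% were called higher and 14.5% lower there. Sox9 (2.37 ± 0.32) was among the 10, and as its reporter defined the sort, that call follows from the sorting. All 8 leukocyte markers were lower in Sox9-GFP+ cells in that comparison, and their part was not tested.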
